A study of Mus musculus with 6 samples.

Results

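The genes described here encode the proteins of the mitochondrial ribosome, and they were followed in primary mouse embryonic fibroblasts of 2 genotypes before and after hydrogen peroxide. Members were all non-control probes whose gene name on the array begins with Mrpl, for the large subunit, or Mrps, for the small subunit, and goes on with a number. That gave 116 probes of 41174 on the array, 69 for the large and 47 for the small subunit, and 73 genes of 29742 gene names, 44 large and 29 small. Where a gene had several probes, the brightest one over the 6 arrays stands for it. No measured value was used to choose the genes.

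The cells came from embryos of the E15 stage. WT cells are wild type, and WS cells are homozygous for an in-frame deletion of part of the helicase domain of Wrn, the mouse homologue of the Werner syndrome gene. The mice had a mixed genetic background that includes Black Swiss, and no other allele is named for either genotype. RNA was compared on 6 two-colour Agilent Whole Mouse Genome arrays, with 2 arrays for each of 3 comparisons. On the first pair, WT cells given 0.5 mM H2O2 for 1 h and left for 24 h to recover carried the Cy5 dye and untreated WT cells the Cy3 dye. The second pair set treated WS cells in Cy5 against untreated WS cells in Cy3 after the same dose and times. The third pair, replicates 3 and 4, set the untreated genotypes against each other. The study's methods call the duplicate RNA samples biological, but the sources used here do not say which embryos or cultures each came from, so the p-values measure the spread between these arrays.

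The mitochondrial ribosome translates the few proteins encoded by mitochondrial DNA, all of them subunits of the respiratory chain complexes and of ATP synthase. Its RNAs come from mitochondrial DNA, whereas all of its proteins are encoded in the nucleus, made in the cytosol and imported. The small subunit binds the mRNA and decodes it, and the large subunit forms the peptide bond and leads the new chain through a tunnel to the inner membrane. Names are older than the structures: Mrps30 and Mrps18a are now placed in the large subunit, and Mrps36 is now counted as a part of the 2-oxoglutarate dehydrogenase complex. They are kept here under the subunit that their names give.

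Promoters of these genes are shown first because the members share short sequence motifs there that were not used to choose them. RefSeq promoters, 250 bases before to 50 bases after the start on GRCm38.p6, were matched for 64 of the 73 genes, as 70 promoters. Motifs were searched on both strands as exact letters. CCGGAAG, the core bound by ETS factors such as GABP, was in 32.9% of the 70 member promoters and in 8.86% of all 32851 promoters of the same length. The core of the NRF1 site, a near-palindrome of GC-rich letters, was in 17.1% of member promoters and 4.60% of all. AAGATGGC, the core of the YY1 site, was in 15.7% and 2.75%. At least 1 of these 3 cores was present in 24 of 38 large subunit genes and 15 of 26 small subunit genes with a promoter, and in 14.7% of all promoters. The GC box GGGCGG was in 52.9% of member promoters and 35.7% of all, and TATAAA in 7.14% and 13.6%. A match is only a match of letters.

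The promoters that follow are printed for some of the genes that differed between the untreated genotypes in the results below and that hold a core. A pair was lower in WS cells (Mrpl12, Mrpl22) and a pair was higher (Mrpl36, on a single array, and Mrpl44, whose probes disagree). Mrpl9 and Mrps12, both lower, hold an NRF1 and a YY1 core and are not printed. Nor is Mrpl48, which was higher and has an ETS core in only 1 of its promoters. Of the other genes that differed, Mrpl23, Mrpl24, Mrps7 and Mrps15 hold none of the cores before the start, and Mrpl54 had no matched promoter. Each run holds the 250 bases before the start, 5′ to 3′ on the strand of the gene, and the capitals mark the motif. In Mrpl12 (chr11:120484387-120484636, + strand) the capitals are an NRF1 core, on the opposite strand, that ends 72 bases before the start. In Mrpl22 (chr11:58171414-58171663, + strand) they are an ETS core that ends 47 bases before it. In Mrpl36 (chr13:73330759-73331008, + strand) a YY1 core, on the opposite strand, ends 23 bases before the start, and in Mrpl44 (chr1:79775768-79776017, + strand) an NRF1 core ends 26 bases before it.
Mrpl12: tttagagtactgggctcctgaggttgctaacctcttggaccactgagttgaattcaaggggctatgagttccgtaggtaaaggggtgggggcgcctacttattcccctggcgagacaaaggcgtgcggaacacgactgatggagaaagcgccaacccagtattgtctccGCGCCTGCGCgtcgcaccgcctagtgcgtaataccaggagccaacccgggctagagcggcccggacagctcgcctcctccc
Mrpl22: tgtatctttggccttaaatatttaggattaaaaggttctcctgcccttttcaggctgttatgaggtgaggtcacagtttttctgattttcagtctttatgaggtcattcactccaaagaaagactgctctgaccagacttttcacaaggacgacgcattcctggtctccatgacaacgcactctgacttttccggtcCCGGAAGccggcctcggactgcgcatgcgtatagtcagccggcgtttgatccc
Mrpl36: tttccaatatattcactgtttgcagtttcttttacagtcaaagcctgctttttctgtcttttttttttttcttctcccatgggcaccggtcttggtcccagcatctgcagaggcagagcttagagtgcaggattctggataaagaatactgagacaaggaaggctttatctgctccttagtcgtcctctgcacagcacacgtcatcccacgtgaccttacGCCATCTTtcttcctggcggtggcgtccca
Mrpl44: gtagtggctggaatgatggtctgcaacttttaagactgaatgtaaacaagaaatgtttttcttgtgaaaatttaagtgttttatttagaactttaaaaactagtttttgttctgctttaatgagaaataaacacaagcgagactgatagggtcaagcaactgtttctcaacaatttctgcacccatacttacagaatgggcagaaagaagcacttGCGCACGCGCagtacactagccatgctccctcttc

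Most member probes were well above background, but the arrays differed in brightness. On each array 114 to 116 of the 116 probes were well above background in Cy3 and 100 to 114 in Cy5, and none was saturated. The median member signal after background subtraction was 328 and 307 in Cy3 on the WS treatment arrays, against 1063 and 1207 on the WT treatment arrays. In Cy5 it was 126 and 43.6 against 174 and 266. The effect of this gap on the responses was not tested. Spots marked as outliers by the extraction software were left out, which removed 5 and 46 member probes on the 2 WT treatment arrays, 0 and 20 on the WS treatment arrays and 2 and 12 on the genotype arrays. Replicate 2 of the WT treatment arrays, which lost 22.6% of all its spots, therefore gave a value for 40 of the 73 genes, and the other arrays for 57 to 73. In untreated WS cells all 10 measured genes of the list of fibroblast markers had a ratio above 0. Of these, 6 passed the test, where 9.83% of all probes were called higher. The median log2 ratio of the list was 1.08 there. In treated over untreated WT cells its median was -1.04 over 7 measured markers, and no marker passed the test. The 2 WT arrays differed, with medians of -1.15 over 6 markers on replicate 1 and -0.40 over 4 on replicate 2. Of the 8 macrophage, 8 skeletal muscle, 4 epithelial and 4 endothelial markers, Krt18 alone passed the test in any of the 3 comparisons, lower in untreated WS cells. The part of cell makeup in the results was not tested, and in bulk RNA fewer cells of a type and less RNA per cell cannot be told apart.

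In WT cells most of these mRNAs lay slightly above untreated cells after H2O2, and none passed the test on its own. The median log2 ratio of treated over untreated cells was 0.22 over 70 genes with a value, 0.23 for the large and 0.20 for the small subunit, while the median over all probes was -0.01. The ratio was above 0 for 53 genes and below 0 for 17. Both arrays showed the same shift, with gene medians of 0.22 on replicate 1 and 0.21 on replicate 2. Of the 40 genes with a value on both, 30 were above 0 on both and 7 below 0 on both, against 41.4% and 33.6% of all genes on the array. By limma's test with Benjamini-Hochberg adjustment over all probes, 0 of 70 genes and 0.258% of all probes had an adjusted p under 0.05. At an unadjusted p under 0.05 there were 13 members above 0 and 2 below, where 9.98% and 10.0% of all probes lay. Over the 29 genes with several probes, all probes of a gene that had a value had the same sign of the WT ratio in 12. These 12 include Mrpl43 and Mrps6, where a single probe had a WT value and no agreement could be judged.

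**Figure D1:**
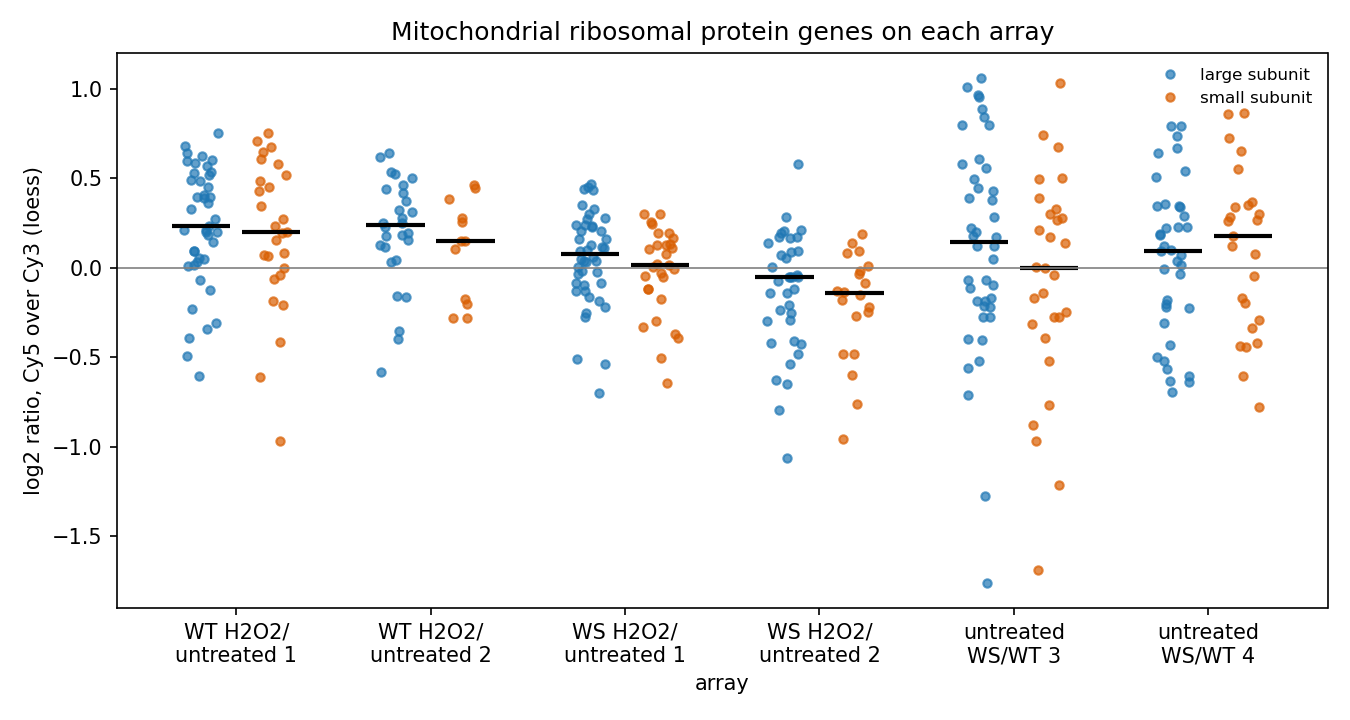
Log2 ratio of Cy5 over Cy3 (vertical axis) of each mitochondrial ribosomal protein gene on each of the 6 arrays (horizontal axis), large subunit in blue and small subunit in orange, with black lines at the medians. Both WT treatment arrays have gene medians of 0.22 and 0.21, whereas the 2 WS treatment arrays have 0.05 and -0.12; the genotype arrays are drawn as mutant over wild type.

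Among large subunit genes with a value on both arrays, the highest ratios in WT cells belonged to Mrpl32, Mrpl45 and Mrpl16. Mrpl32, a zinc-binding protein that is trimmed by a protease of the inner membrane before it joins the ribosome, had log2 ratios of 0.75 and 0.64 on replicates 1 and 2 (mean 0.70 ± 0.20 SE, adjusted p = 0.119). Mrpl45, which holds the ribosome to the inner membrane near the tunnel exit, had 0.57 and 0.62 (mean 0.59 ± 0.16 SE, adjusted p = 0.103), whereas its other probe gave -0.14 on the 1 array that measured it. Mrpl16, a protein at the tRNA sites of the large subunit, had 0.62 and 0.54. All of these values lay above 0, yet the adjusted p of 0.103 for Mrpl45 and Mrpl16 was the lowest among the 73 probes that stand for the genes. Over all member probes it was 0.083, for a dim probe of Mrps5 with a mean log2 ratio of 0.92. At the other end, Mrpl17 had -0.61 and -0.58 (mean -0.60 ± 0.16 SE, adjusted p = 0.110), and Mrpl54 had -0.34 and -0.40. Mrpl2, which lies close to the peptidyl transferase centre, had -0.23 and -0.35. These 3 genes were below 0 on both WT arrays.

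Of small subunit genes with both arrays, Mrps22 had 0.75 and 0.45 (mean 0.60 ± 0.18 SE, adjusted p = 0.133). Mrps30 had 0.52 and 0.46, with a mean of -0.01 for its dimmer probe, and Mrps25 had 0.48 and 0.38. These 3 proteins have no bacterial counterpart. The lowest of them were Mrps11 at -0.21 and -0.28, Mrps21 at -0.18 and -0.28, and Mrps27, a pentatricopeptide repeat protein, at -0.04 and -0.21. Values at this end were smaller in size than those at the upper end.

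The shift in WT cells could not be separated from the dyes. No array was repeated with the dyes exchanged, so a probe that labels better with Cy5 adds the same amount to each ratio. A fit of the 12 single channels with a term for the dye put the WT median at -0.03 over the 34 genes it could estimate and at -0.01 over all 73 with outlier spots kept, with a median dye term of 0.27 and 0.22. That fit reads Cy5 as mutant on the genotype arrays, as set out with that comparison. With WT in Cy5 there, as the labels have it, the WT median was 0.12 and the median dye term 0.11 over 73 genes.

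In WS cells the same genes were centred on 0. The median log2 ratio of treated over untreated WS cells was -0.004 over 73 genes, 0.02 for the large and -0.01 for the small subunit, with 36 genes above 0 and 37 below. The 2 arrays differed, with gene medians of 0.05 on replicate 1 and -0.12 on replicate 2. Of 57 genes with a value on both, 18 were above 0 on both and 22 below 0 on both. By limma's test 0 of 73 genes passed, as did 0% of all 41052 probes. At an unadjusted p under 0.05 there were 2 members above 0 and 6 below, where 5.81% and 6.21% of all probes lay. With the dye term the median was -0.25 over the 34 genes and, with WT in Cy5 on the genotype arrays, -0.14 over 73.

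The genes at the ends in WS cells were partly those of WT cells. Mrpl12, which forms the stalk that recruits translation factors and also binds the mitochondrial RNA polymerase, had log2 ratios of -0.54 and -1.06 on replicates 1 and 2 (mean -0.80 ± 0.24 SE, adjusted p = 0.316). Mrpl17 had -0.70 and -0.65 (mean -0.67 ± 0.16 SE, adjusted p = 0.263), and Mrpl54 had -0.51 and -0.63. Mrpl17 and Mrpl54 were thus below 0 on all 4 treatment arrays. Mrpl49 had 0.35 and 0.58 (mean 0.46 ± 0.19 SE, adjusted p = 0.402), Mrpl34 had 0.45 and 0.28, and Mrpl39 had 0.47 and 0.17. Mrpl34 and Mrpl39 were above 0 on every treatment array that measured them, Mrpl39 on 1 of the WT arrays.

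For the small subunit, Mrps26 had -0.64 and -0.96 in WS cells and -0.97 on the 1 WT array that measured it, the lowest member on that array. Its other probe had means of 0.01 in WT cells and -0.04 in WS cells. Mrps16 had -0.37 and -0.60 and no value in WT cells. Mrps11 had 0.30 and 0.19, Mrps22 had 0.25 and 0.01, and Mrps36 had 0.20 and 0.09. The Mrps18 paralogs are related to 1 bacterial protein and sit at different positions in the ribosome. Mrps18a had -0.33 and -0.76 in WS cells and 0.07 on 1 WT array. Mrps18b had -0.05 in WS cells and 0.08 in WT cells, and Mrps18c had 0.02 and 0.65, each from 1 array per genotype. None of the 3 paralogs passed the test in any comparison.

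The response of WS cells minus that of WT cells was below 0 for most members of both subunits. Both responses were measured with treated cells in Cy5 and untreated cells in Cy3, and the 4 treatment arrays share 1 day of image extraction. Its median was -0.25 over 70 genes, -0.26 for the large and -0.24 for the small subunit, while the median over all probes was 0.01. It was below 0 for 57 genes and above 0 for 13, with 36 of 43 large and 21 of 27 small subunit genes below. Over all probes 51.4% lay above 0. By limma's test 0 of 70 genes passed, as did 0% of all 40267 probes, and the median standard error of a member was 0.28. At an unadjusted p under 0.05 there was 1 member, Mrpl45, against 5.94% of all probes.

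Counted by array, 36 genes had a value on all 4 treatment arrays. In 25 of them both WS arrays lay below both WT arrays, and in 4 both lay above. Over all probes with 4 values the same held for 25.0% and 22.3%. The large subunit gave 19 below and 1 above of 25 genes, and the small subunit 6 below and 3 above of 11. The median of the difference ran from -0.15 to -0.37 when 1 treatment array was left out at a time, from -0.37 without WS replicate 1 to -0.15 without WS replicate 2 and -0.17 without WT replicate 1. With the dye term it was -0.23 over 34 genes, -0.27 over 73 and, with WT in Cy5 on the genotype arrays, -0.29 over 73.

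**Figure D2:**
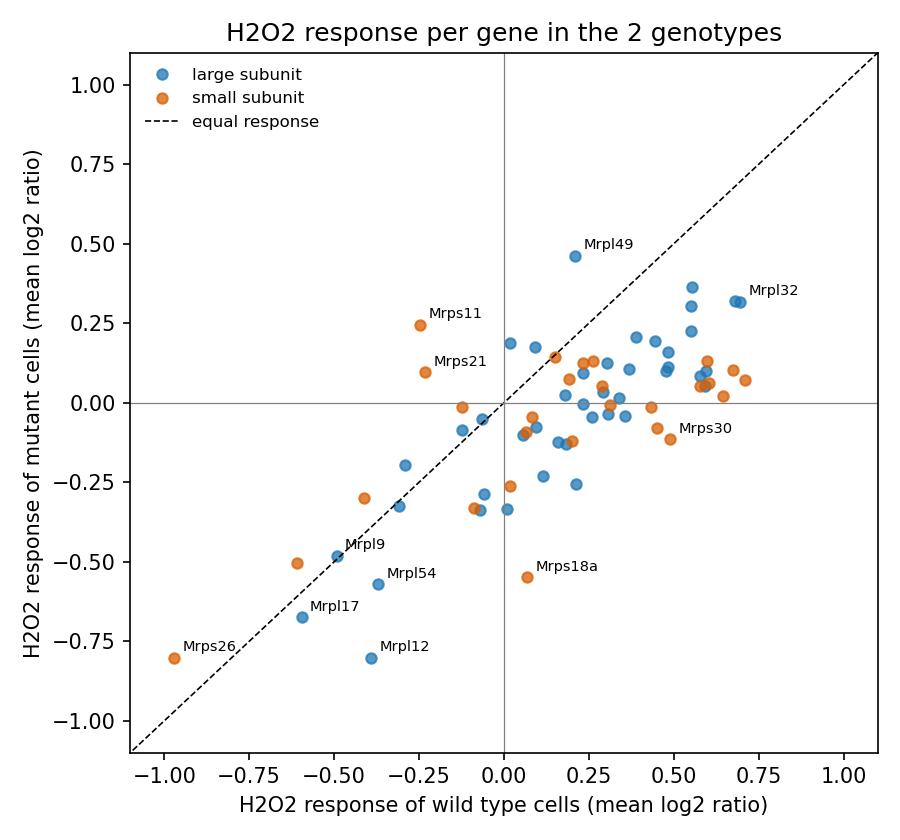
H2O2 response of each gene in mutant (WS) cells (vertical axis) against wild type cells (horizontal axis), as mean log2 ratios of treated over untreated cells, blue for the large and orange for the small subunit. Of the 70 genes, 57 lie below the dashed line of equal response and 13 above it.

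With median centring in place of loess the median difference of the members was 0.02, where that of all probes with a mean log2 intensity above 6 was 0.30, compared with -0.25 and 0.04 after loess. The members therefore lay below other bright probes with either scaling, although the sign of their median turned.

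Mrpl45 showed the widest gap among large subunit genes. Its WT values of 0.57 and 0.62 lay above its WS values of 0.16 and -0.05, a difference of -0.54 ± 0.22 SE (adjusted p = 0.837). The other probe of Mrpl45 gave a difference of -0.10. Mrpl16 had 0.62 and 0.54 in WT cells and 0.11 and 0.06 in WS cells, a difference of -0.49 ± 0.22 SE (adjusted p = 0.845). Neither gene overlapped between the genotypes. In the small subunit, Mrps30 had 0.52 and 0.46 against 0.02 and -0.25, a difference of -0.61 ± 0.30 SE (adjusted p = 0.849), and -0.22 for its dimmer probe. Mrps22 had 0.75 and 0.45 against 0.25 and 0.01, a difference of -0.47 ± 0.26 SE. Mrps10 had the most negative difference of all, -0.64 ± 0.28 SE (adjusted p = 0.845), from 0.71 on 1 WT array and 0.16 and -0.02 on the WS arrays.

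Genes with a value on all 4 treatment arrays were read for opposite sides of 0 in the 2 genotypes. In 5 of these 36 genes both WT arrays lay on 1 side of 0 and both WS arrays on the other. How often this holds over all probes was not counted, so the number is no result about the members. Mrpl24 had 0.36 and 0.25 in WT cells and -0.02 and -0.05 in WS cells. Mrpl36 had 0.40 and 0.31 against -0.03 and -0.05, and Mrpl48 had 0.20 and 0.03 against -0.04 and -0.42. The reverse was found for 2 small subunit genes. Mrps11 had -0.21 and -0.28 in WT cells and 0.30 and 0.19 in WS cells, and Mrps21 had -0.18 and -0.28 against 0.11 and 0.08. None of these 5 differences passed the test, with adjusted p from 0.881 to 0.929. Mrpl49 was the large subunit gene with the most positive difference, 0.25 ± 0.27 SE, and its other probes gave -0.21 and 0.04.

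Between the untreated genotypes, 12 members passed the test, 7 higher and 5 lower in WS cells. The labels put WT RNA in Cy5 on these 2 arrays, but the study's own list of genes takes Cy5 over Cy3 as mutant over WT, and that reading is used here. It was checked on the Cy3 channel of the treatment arrays, which holds other untreated samples of both genotypes. Over the 4682 probes measured there that passed the test on the genotype arrays with a mean log2 intensity above 6, r was 0.898 and 95.1% had the same sign. These 2 arrays were extracted on later days than the treatment arrays, each on its own day. With the dyes of the labels, higher and lower change places throughout. The 12 genes of 73 compare with 19.6% of all probes, 9.83% higher and 9.78% lower. Over all 116 member probes, 9 were called higher and 10 lower, so the split by direction depends on the probe taken for a gene. The median log2 ratio of WS over WT was 0.09, 0.19 for the large and 0.001 for the small subunit, with 40 genes above 0 and 33 below. The share of members called lies near that of all probes, so the count is no result about the members. With median centring the median was 0.43, with 62 genes above 0, and with the dye term it was -0.09.

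Among the higher genes, Mrpl23 and Mrpl24 are neighbours at the rim of the tunnel exit. Mrpl24 had log2 ratios of WS over WT of 0.80 and 0.74 on replicates 3 and 4 (mean 0.77 ± 0.15 SE, adjusted p = 0.015), the lowest adjusted p of any member. Mrpl23 had 1.01 on replicate 3 and no value on replicate 4 (adjusted p = 0.048). Both were also higher in the Cy3 channel, by 0.60 and 0.87. Mrpl44, a protein with a ribonuclease III-like fold beside the tunnel exit, had 0.80 and 0.67 (mean 0.73 ± 0.16 SE, adjusted p = 0.022). Its 3 probes disagreed, from -0.71 to 0.73, and the brightest is the one reported.

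Mrpl54, found only in mitochondrial ribosomes, had 0.58 and 0.79 (mean 0.68 ± 0.15 SE, adjusted p = 0.024). Mrps15, which binds the small subunit RNA, had 0.67 and 0.65 (mean 0.66 ± 0.16 SE, adjusted p = 0.033) and was the only small subunit gene that was higher. These values repeated closely between the 2 arrays. Mrpl36 had 0.96 (adjusted p = 0.034) and Mrpl48 had 1.06 (adjusted p = 0.037), each on replicate 3 alone. The other probe of Mrpl48 gave 0.41. These 2 genes and Mrpl23 have a single genotype array behind their ratio, since the spot on replicate 4 was an outlier.

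The 5 lower genes included parts of the stalk, the tunnel and the decoding site. Mrpl12 of the stalk had -1.27 and -0.57 (mean -0.92 ± 0.24 SE, adjusted p = 0.046), and was below 0 in the Cy3 channel as well, by -1.26. Mrpl22, which lines the tunnel, had -0.56 and -0.63 (mean -0.60 ± 0.16 SE, adjusted p = 0.045). Mrpl9 had -1.76 and -0.60 (mean -1.18 ± 0.31 SE, adjusted p = 0.048). Mrpl12 and Mrpl9 were much lower on replicate 3 than on replicate 4, whereas Mrpl22 hardly differed. Mrps7, around which the head of the small subunit is built, had -1.21 and -0.78 (mean -0.996 ± 0.20 SE, adjusted p = 0.021), and its other probe -0.11. Mrps12, the decoding site protein in which bacterial streptomycin resistance arises, had -0.77 and -0.60 (mean -0.69 ± 0.16 SE, adjusted p = 0.035).

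**Figure D3:**
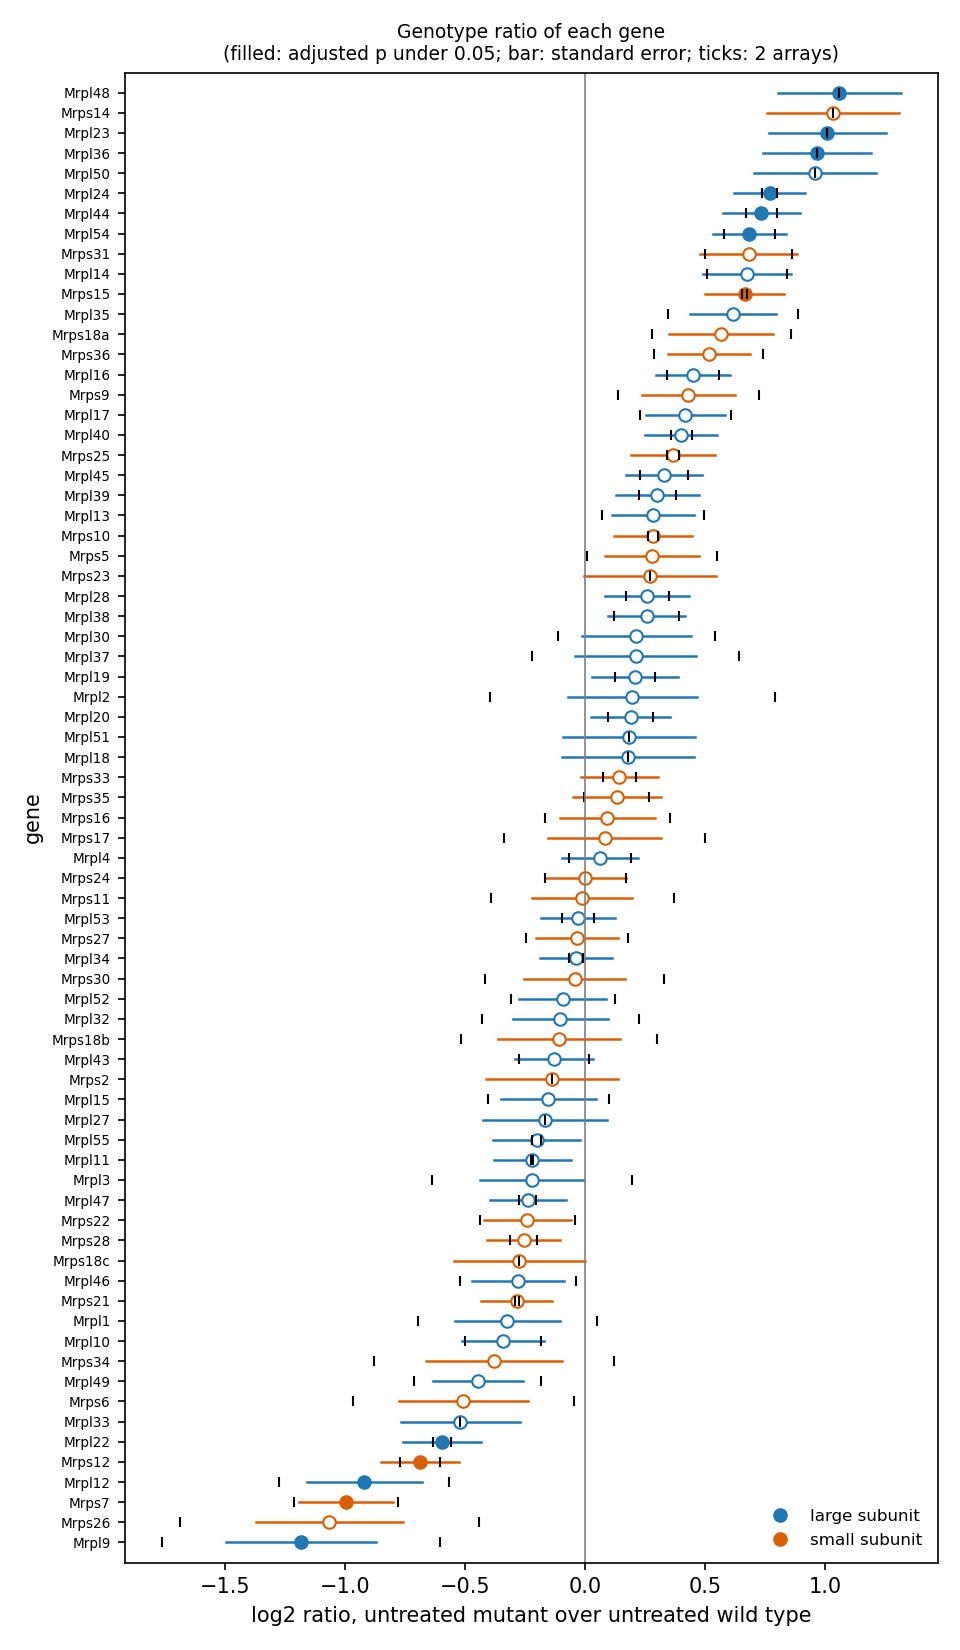
Log2 ratio of untreated mutant over untreated wild type cells (horizontal axis) for each gene, sorted from lowest to highest (vertical axis). Circles are the mean of replicates 3 and 4, bars its standard error and ticks the single arrays; the 12 filled circles have an adjusted p under 0.05, and the lowest is Mrpl9 at -1.18.

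Several members had equally large ratios and did not pass. Mrps26 had -1.69 and -0.44 (mean -1.07 ± 0.31 SE, adjusted p = 0.060), and its other probe a mean of -0.02. Mrps31 had 0.50 and 0.86, and Mrps14 had 1.03 on replicate 3 alone (adjusted p = 0.078). Mrps18a had 0.28 and 0.86. The probes of Mrpl1 ran from -0.79 to 0.50. Over the 29 genes with several probes, all probes of a gene had the same sign of this ratio in 14.

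All 12 called genes had the same sign in the Cy3 channel of the treatment arrays, and 52 of the 70 members with both values did. The direction of the genotype ratio was itself checked on this channel. There 95.1% of the called probes with a mean log2 intensity above 6 had the same sign. The 12 are therefore no separate check of the direction and show nothing particular to the members. Per array, the normalized log2 Cy3 level of Mrpl24 was 8.74 and 8.0 in WT cells and 9.13 and 8.81 in WS cells. That of Mrpl22 was 9.37 and 8.53 in WT cells and 8.47 and 8.15 in WS cells. Neither overlapped, but the nearest values, 8.74 and 8.81 or 8.53 and 8.47, lay closer together than the replicates of either genotype. Mrpl12 had 10.2 on 1 WT array and 9.30 and 8.57 on the WS arrays. For Mrpl44 the values overlapped, 7.93 and 7.16 in WT cells and 7.51 and 7.96 in WS cells. Those of Mrpl36, Mrpl54 and Mrps15 overlapped too, whereas those of Mrpl48 did not. The remaining called genes lacked a Cy3 value on a treatment array. How often probes of the whole array fail to overlap in Cy3 was not counted, so no conclusion is drawn from overlap. By limma's test within Cy3 alone, 0 of 70 members passed, where 1.49% of all probes did.

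**Figure D4:**
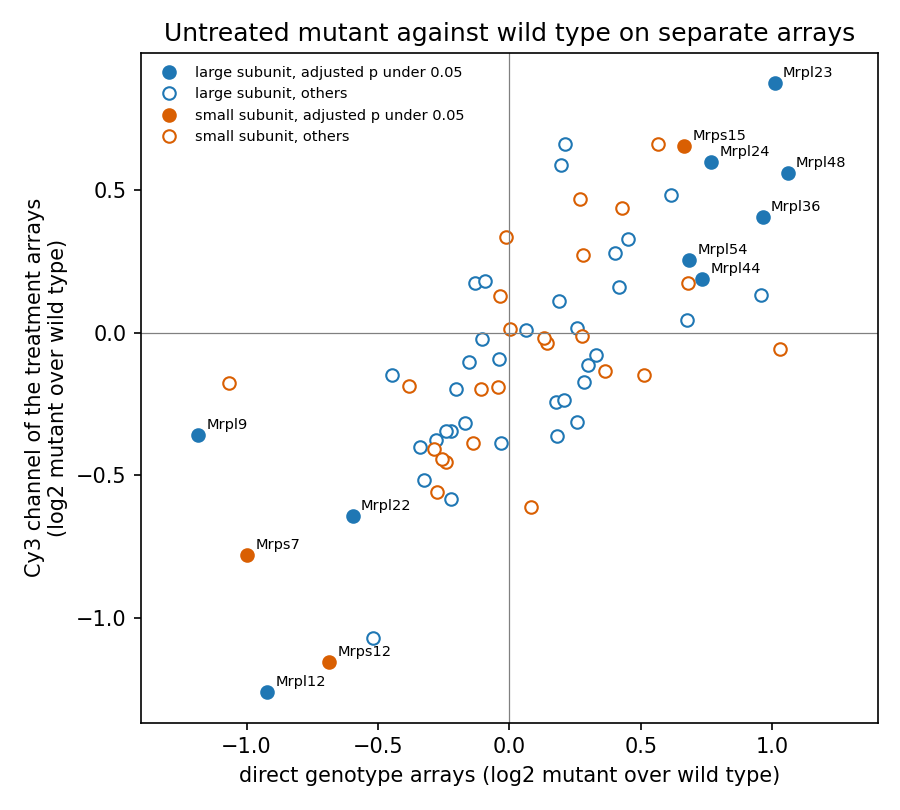
Log2 ratio of untreated mutant over wild type cells from the Cy3 channel of the 4 treatment arrays (vertical axis) against the same ratio from the 2 direct genotype arrays (horizontal axis), 1 point per gene, filled where the direct ratio has an adjusted p under 0.05. All 12 filled points have the same sign on both axes, but the direction of the direct ratio was itself checked on this Cy3 channel.

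The 12 calls rested on the pooled spread of all arrays. With the genotype arrays alone 0 members passed, where 5.0% of all probes did. Leaving out WT treatment replicate 1 or 2 left 2 calls, where 12.7% of all probes passed, and leaving out WS treatment replicate 1 or 2 left 0, where 9.01% did. Leaving out genotype replicate 3 gave 15 calls, against 43.2% of all probes, and leaving out genotype replicate 4 gave 22, against 28.9%.

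Treated WS cells were compared with treated WT cells within the Cy5 channel. The median log2 ratio over 70 members was -0.33, with 19 genes above 0 and 51 below, and over all probes it was 0.08. For the untreated cells in Cy3 it was -0.10, with 28 above and 42 below. By limma's test 0 of 70 members passed in Cy5, where 1.65% of all probes did. Both medians depended on 1 array: without WT treatment replicate 1 they were 0.26 in Cy5 and 0.40 in Cy3.

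Genes that serve the same ribosome were read from lists of other names. Their counts between untreated genotypes stand beside the 9.83% of all probes called higher and 9.78% called lower. The mitochondrial translation factors had 3 of 10 genes past the test between untreated genotypes. Mrrf, which recycles the ribosome after termination, was higher in WS cells with a log2 ratio of 1.02 ± 0.17 SE, as was Lrpprc, which stabilizes mitochondrial mRNAs, at 0.59 ± 0.15 SE. Gfm1, the elongation factor G of mitochondria, was lower at -0.97 ± 0.21 SE. The difference between their H2O2 responses had a median of -0.13, with 8 of 9 genes below 0 and 0 past the test. Of the other genes, 1 of 8 assembly factors, 1 of 11 mitochondrial transcription and DNA maintenance genes and 0 of 8 mitochondrial aminoacyl-tRNA synthetases were higher in WS cells, and 0 were lower. Of 4 measured mitoribosomal proteins under other names, 0 passed. The gene of the second list was Top1mt, the mitochondrial topoisomerase, at 0.93 ± 0.16 SE.

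The regulators of mitochondrial biogenesis had 1 gene higher and 2 lower of 11. Esrra, a nuclear receptor that drives mitochondrial genes, was higher in untreated WS cells at 0.81 ± 0.20 SE. Nrf1, whose binding core was searched in the promoters, was lower at -1.38 ± 0.38 SE, and Myc was lower at -0.95 ± 0.17 SE. The promoters and these values were not tested against each other.

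Beside the products of mitochondrial translation stand the nuclear subunits of complex IV and ATP synthase. Of 24 such genes, Atp5o was higher in untreated WS cells, at 0.67 ± 0.15 SE, and Atp5g1 and Atp5k were lower, at -0.79 ± 0.15 SE and -0.65 ± 0.16 SE. The median of the difference between H2O2 responses was -0.09 over 19 of them, with 14 below 0. For 18 genes of mitochondrial stress and import it was -0.54 over 17 with a value, with 14 below 0. Between untreated genotypes 4 genes of that list were higher in WS cells, led by Ddit3 and Atf5, transcription factors of the stress response, at 2.35 ± 0.25 SE and 2.03 ± 0.21 SE, and 4 were lower, led by Tomm40, the import channel of the outer membrane, at -1.78 ± 0.32 SE. Lonp1, the matrix protease, was the gene of the list that passed the test in treated WT cells (log2 ratio 1.59, adjusted p = 0.040) and had a ratio of -0.52 in WS cells.

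Of 73 measured genes of cytosolic ribosomal proteins, 12 were higher and 0 lower in untreated WS cells, where 9.83% and 9.78% of all probes were, and their median log2 ratio was 0.31. The difference between their H2O2 responses had a median of -0.13, with 35 of 50 genes below 0, and both WS arrays lay below both WT arrays in 16 of the 27 with all 4 values and above in 1, where 25.0% and 22.3% of all probes did. With median centring that median was 0.38, against 0.02 for the mitochondrial family and 0.30 for all probes with a mean log2 intensity above 6. The families were not tested against each other.

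**Figure D5:**
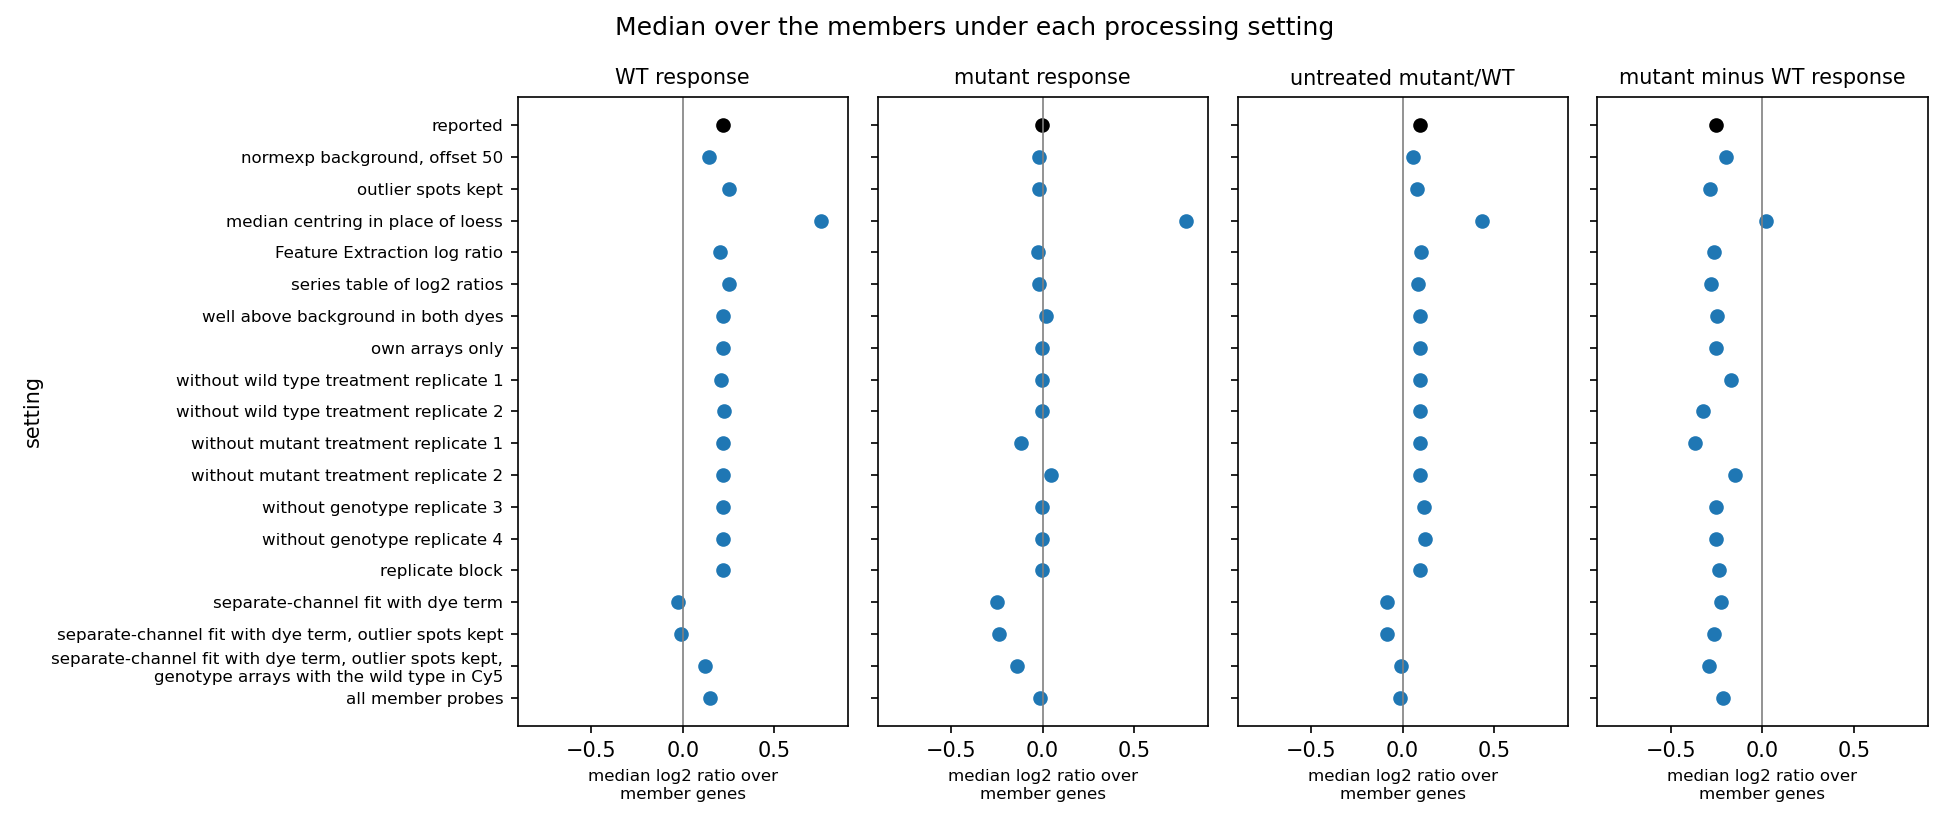
Median log2 ratio over the mitochondrial ribosomal protein genes (horizontal axes) in each comparison (panels) under the reported and each other processing setting (vertical axis). The difference between responses is -0.25 as reported and is above 0 for median centring alone, at 0.02, while the WT response with a dye term lies between -0.03 and 0.12.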

How the data were processed

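Per array, the authors deposited a file of Agilent Feature Extraction that gives, for both dyes, mean signal intensity and local background intensity, quality flags, which are not measurements, and the software's log10 ratio of Cy5 over Cy3. The authors' series table holds log2 ratios after background subtraction and loess. The study's text and its labels differ on the RNA (cytoplasmic or total) and on the version of the extraction software.

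Log2 ratios were obtained from the intensities in R 4.3.3 with limma 3.58.1, with the local background median subtracted and loess within arrays. Control and outlier spots were left out, and spots of a probe averaged. One lmFit and eBayes fit of all 6 arrays held 1 coefficient per comparison and gave two-sided p-values, with Benjamini-Hochberg adjustment across every probe that had a value. Calls used an adjusted p under 0.05. Single channels were scaled between arrays with Aquantile. The steps were tested on simulated data with known changes, with 48 to 50 changed probes of each size per comparison. There 0% of log2 changes of 0.5 and of 1 passed the test in any of the 3 comparisons. Of changes of 2, 60% to 80% passed, and of changes of 4, 96% to 98%. A lack of calls among small changes therefore says little about them. Few of the 41174 simulated probes were changed, whereas 19.6% of all probes passed in the measured genotype comparison. The adjustment is less strict there, so these shares do not carry over to that comparison. Other software was data.table (version 1.17.8) for reading, and for promoters and plots Python 3.11.15 together with pandas 2.3.3 and matplotlib 3.10.9. The number of arrays limits the precision.

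The members, the gene lists and the tests were chosen with earlier results of these data known. Named genes are all called members, the 3 highest and 3 lowest per subunit and comparison with the same sign on both arrays, Mrpl12, the Mrps18 paralogs, and genes whose probes disagree past an unadjusted p of 0.05; Mrps10, Mrps14 and the genes of other lists were named after their values were seen. RefSeq tables of GRCm38.p6 gave the promoters. The genome build behind the probes is not given in the sources used here. Alternatives were the background method, outlier spots, scaling, the authors' ratios, a background filter, separate fits, left-out arrays, a replicate block, a dye term, the study's thresholds and all member probes.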

Additional observations from a re-analysis of the deposited data

How the results depend on the processing

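With 2 arrays per comparison and no dye exchange, single genes were resolved only by the pooled spread. Median centring leaves the intensity-dependent dye difference in place and raised all probes with a mean log2 intensity above 6 by 0.39, 0.64 and 0.25 in the WT response, the WS response and the genotype ratio. The cause of the other changes was not tested.

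The number of members called in the WT response was 4 with normexp background (5.56% of all probes), 20 when a comparison was fitted by itself (25.1%), and 0 to 16 with 1 array left out, 16 without genotype replicate 3 or 4 (22.8%). In the WS response it was 1 with median centring (4.57%), 5 when fitted by itself (10.7%) and 0 to 4 with 1 array left out, 4 without a genotype array (9.91%). In the genotype comparison it was 4 with median centring (10.6%) and with the Feature Extraction ratio (8.16%), and 0 when fitted by itself (5.0%). It was also 0 with the dye term, with outlier spots left out (2.34%) or kept (2.28%), or with WT in Cy5 on the genotype arrays (0%). With the study's thresholds it was 0, and no share of all probes is given for that setting. Over all 116 member probes it was 19, against 19.6% of all probes. With 1 array left out it was 0 to 22, from 0 without a WS treatment array (9.01%) to 22 without genotype replicate 4 (28.9%). The difference between responses had 0 calls under every setting.

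The median WT response was 0.14 with normexp, 0.25 with outlier spots kept and with the series table, 0.75 with median centring, 0.20 with the Feature Extraction ratio, -0.029 and -0.0095 with the dye term (outlier spots left out, then kept, the latter chosen after seeing the data), 0.12 with the dye term and WT in Cy5 on the genotype arrays (outlier spots kept, also chosen after seeing the data), 0.15 over all member probes and 0.21 to 0.22 with 1 array left out. The median WS response was 0.78 with median centring, -0.25, -0.24 and -0.14 with the 3 fits of the dye term in that order and -0.12 to 0.05 with 1 array left out. The median genotype ratio was 0.056 with normexp, 0.078 with outlier spots kept, 0.43 with median centring, 0.10 with the Feature Extraction ratio, 0.083 with the series table, -0.085, -0.087 and -0.0078 with the dye term, -0.012 over all member probes and 0.092 to 0.12 with 1 array left out. The median difference was 0.019 with median centring and -0.37 to -0.15 with 1 array left out.

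Replicate numbers are shared by the WT and WS treatment arrays. The deviations of same-numbered arrays correlated at -0.05 in the ratios, 0.18 in Cy3 and 0.10 in Cy5. With only 2 numbers these correlations cannot show whether same-numbered arrays were paired, and the reported fit holds no pairing. With the replicate block 0 members were called in the genotype comparison, where 8.40% of all probes were, and Mrps18a had -0.14 in the WT response.

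Single genes changed sign as follows. With median centring the WS response was 0.11 for Mrpl17, 0.33 for Mrpl54, 0.37 for Mrps16, 0.24 for Mrps18a, 0.77 for Mrps18b and 0.12 for Mrps26. The WT response was then 0.20 for Mrpl12, 0.12 for Mrpl2, 0.20 for Mrpl54, 0.28 for Mrps11, 0.34 for Mrps21 and 0.021 for Mrps27, the difference for Mrps18b was 0.28, and the genotype ratio was 0.14 for Mrps18b and 0.29 for Mrps18c. The WS response of Mrps18c was -0.023 with the Feature Extraction ratio, -0.022 with normexp, -0.00365 with outlier spots kept and -0.00342 with the series table, and the WT response of Mrps18a was -0.000388 with normexp. With the dye term the WS response was -0.21 for Mrps22 and -0.46 for Mrps36, and the WT response -0.11 for Mrpl44, -0.023 for Mrpl45, 0.37 for Mrps11 and -0.079 for Mrps25. With the dye term and outlier spots kept the WS response was -0.30 for Mrps18c, -0.22 for Mrps22 and -0.46 for Mrps36, the WT response -0.14 for Mrpl44, -0.041 for Mrpl45, 0.33 for Mrps11, -0.22 for Mrps18a and -0.089 for Mrps25, and the genotype ratio of Mrps18b 0.053. With the dye term and WT in Cy5 on the genotype arrays the WT response was -0.22 for Mrpl16, 0.16 for Mrps21, -0.36 for Mrpl44, 1.12 for Mrpl12, -0.34 for Mrps18a and -0.021 for Mrps18b, the WS response -0.11 for Mrpl39, 0.47 for Mrpl12, -0.26 for Mrps36 and 0.93 for Mrps26, and the genotype ratio 0.0063 for Mrpl9, -0.13 for Mrps18a and 0.13 for Mrps18b. With 1 array left out the genotype ratio of Mrps18b ran from -0.52 to 0.30 and that of Mrpl1 from -0.70 to 0.049.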

Other observations

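Members whose promoter held a motif core and those whose promoter did not are set side by side here as median log2 values for all 3 cores and all 4 comparisons, with no test. For the ETS core, in 23 genes and missing from the promoters of 41, the median WT response was 0.10 with the core and 0.29 without it, the median WS response 0.09 and 0.02, the difference between responses -0.15 and -0.32, and the genotype ratio -0.09 and 0.21. For the NRF1 core, in 12 genes and missing from 52, these medians were -0.09 and 0.25, -0.14 and 0.02, -0.25 and -0.26, and 0.26 and 0.04. For the YY1 core, in 11 genes and missing from 53, they were 0.07 and 0.28, -0.01 and 0.05, -0.24 and -0.26, and -0.01 and 0.14. The promoters were grouped by letters alone, and up to 3 genes of a group had no value in WT cells.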
